A study of Zea mays with 9 samples.

Results

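Leaves given the maize peptide Zip1 were compared directly with leaves given the hormone salicylic acid (SA), to find which functional classes of genes separate the peptide response from the hormone response. The comparison covered every gene that passed a filter on low counts, 23077 of the 39755 genes in the table, in 3 Zip1 libraries and 3 SA libraries, and 3 mock libraries gave the level without either treatment. The plants were seedlings of Zea mays, cultivar Golden Bantam, with no mutation or transgene named in the labels. They had stood in soil for 8 days before leaf 2 was detached and infiltrated under a vacuum of 60 mbar. The Zip1 group received the peptide at 5 µM, the SA group received SA at 2 mM, and the mock group received water holding 0.1% of the solvent DMSO. All leaves were taken 6 h after infiltration, so that each treatment was seen at 1 dose and 1 time. The labels state neither whether the Zip1 and SA solutions held DMSO nor whether the libraries of a group came from separate plants, and p-values then measure only the spread between these libraries.

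SA is a hormone of plant immunity that is sensed by NPR proteins, which control transcription together with TGA factors and act upstream of many WRKY factors. Zip1 is a peptide that papain-like cysteine proteases of the maize leaf apoplast release from a precursor protein, and it is known as a promoter of SA signalling. Detoxification enzymes such as glutathione S-transferases, glycosyltransferases and cytochromes P450 modify small molecules, while pathogenesis-related proteins act on microbes outside the cell or at the wall.

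The libraries held 28840453 to 38794412 counts and detected 25066 to 26380 genes each. No pair of libraries within a group agreed within counting noise (chi-square per degree of freedom of at least 47.7 among the Zip1 libraries). A principal component with 39.6% of the variance separated the 3 Zip1 libraries from the 3 SA libraries. The labelled tissue carried its markers: a list of 50 C4 and light-harvesting genes summed to 103000 to 142000 CPM (counts scaled to the size of the library) in Zip1 leaves, 106000 to 127000 CPM in SA leaves and 117000 to 158000 CPM in mock leaves, with 42 to 45 of its genes detected. Seed storage zeins summed to 32.6 to 48.3 CPM with Zip1, 33.6 to 47.5 CPM with SA and 38.4 to 59.2 CPM with mock, and 26 to 28 of the 31 were at 0. A pollen list of 24 genes, 18 to 20 of them at 0, summed to 11.3 to 17.4 CPM with Zip1, 4.29 to 8.82 CPM with SA and 5.42 to 9.39 CPM with mock, and its part in the results was not tested.

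Peptide and hormone differed at 949 genes in edgeR's quasi-likelihood test, with an adjusted p under 0.05, which is 4.11% of the genes tested. Zip1 leaves were higher at 359 genes (1.56%) and lower at 590 (2.56%). In all 949, the 3 Zip1 libraries did not overlap the 3 SA libraries, which held for 23.5% of the genes tested. Lack of overlap between Zip1 and SA therefore adds nothing to a call. The median log2 fold change of Zip1 over SA was 1.52 among the higher genes, −1.77 among the lower ones and 0.01 over all genes tested. Against mock, the 590 lower genes had a median log2 fold change of 0.14 with Zip1 and 1.90 with SA, and the 359 higher genes had 0.73 with Zip1 and −0.78 with SA. Both of these comparisons use the same mock libraries and the same treated libraries that chose the genes, so these medians describe and test nothing. With the same fit and threshold, Zip1 against mock gave 204 calls (0.884% of the genes tested, 0.823% higher and 0.0607% lower) and SA against mock gave 1436 (6.22%, with 5.11% higher and 1.11% lower), or 2220 with the replicate number as a block. The count of 949 fell most when Zip1 replicate 3 was left out (456); leaving out Zip1 replicate 1, SA replicate 3, SA replicate 1 or Zip1 replicate 2 gave 498, 509, 590 or 609. In whole leaves, fewer cells of a type and less RNA per cell cannot be told apart.

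The genes were grouped into 74 classes by words and domains in the table's own descriptions, which placed 4501 of the tested genes. Of these, 135 were higher and 232 lower with Zip1. Against 2.56% lower over all genes tested, SA signalling had 17.1% lower (20 of 117 members), detoxification 14.2% (90 of 634), protein folding and turnover 7.21% (31 of 430) and redox and sulfur metabolism 7.03% (9 of 128). Against 1.56% higher over all genes tested, pathogenesis-related proteins had 10.7% higher (20 of 187), the cell wall 8.79% (21 of 239) and nutrient transport 7.12% (23 of 323). The cell wall group includes UDP-sugar and xylan enzymes (11 higher of 87) and tubulins (5 higher of 21). Those classes were chosen after values were seen, so the share of the cell wall group is partly the result of that choice. Genes of photosynthesis and growth had 0 higher and 2 lower calls among 436 members, 0.459% in all. Classes were not tested as sets, and a share is read here only beside the share of all genes tested.

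**Figure D1:**
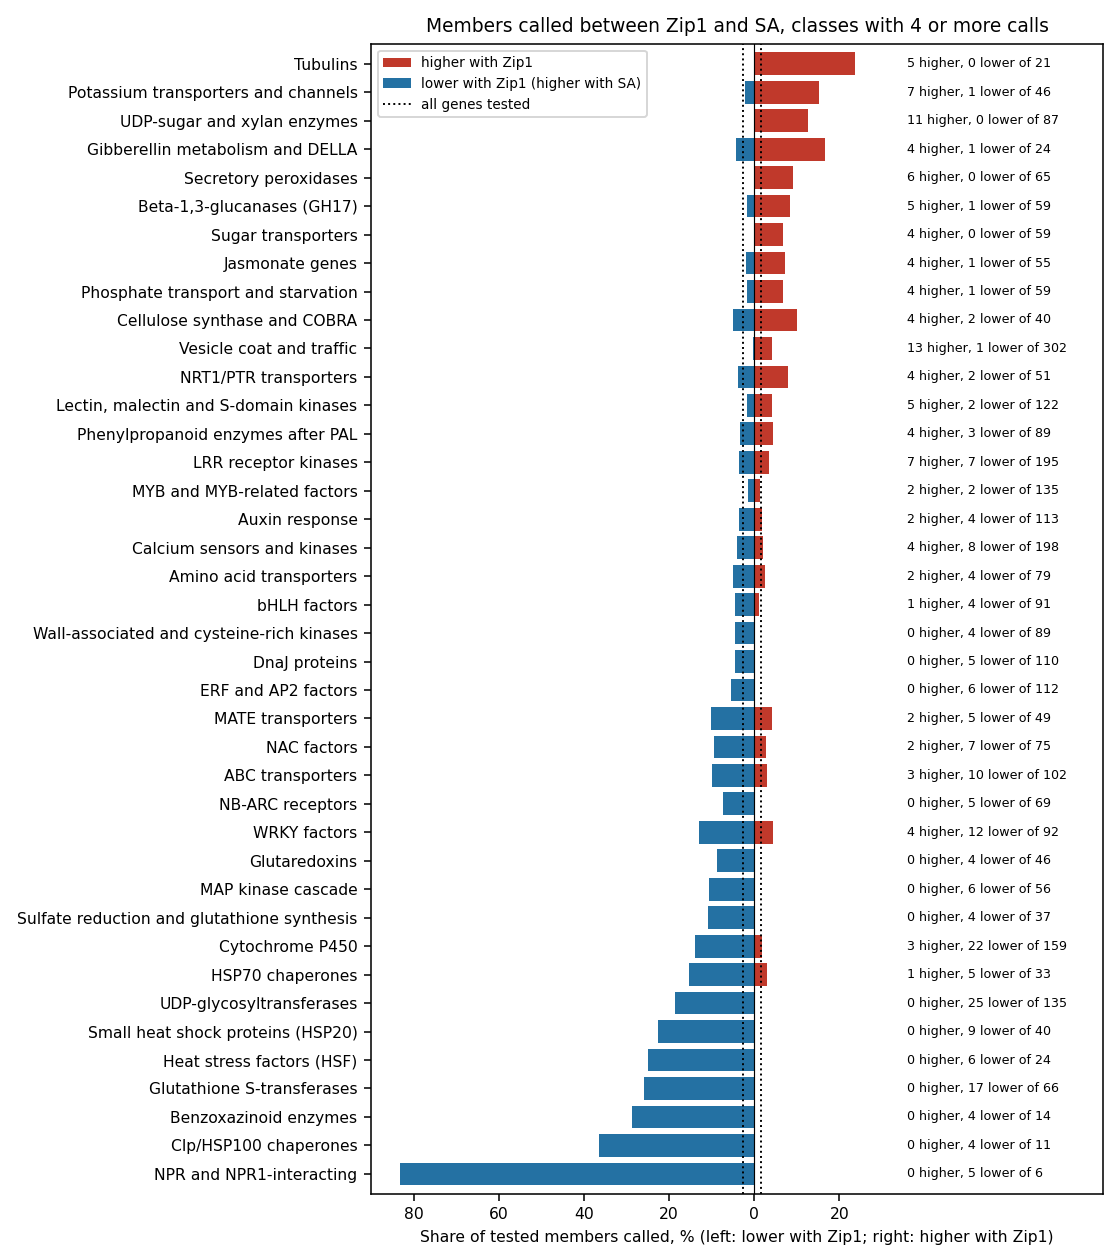
Share of tested members called higher (right, red) or lower (left, blue) with Zip1 than with SA, in percent, for each class with 5 or more tested members and 4 or more calls; dotted lines mark 1.56% higher and 2.56% lower over all genes tested, and the counts stand at the right. The NPR, Clp, benzoxazinoid, glutathione S-transferase and heat stress factor classes extend farthest to the left, and tubulins, gibberellin and potassium classes farthest to the right.

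The genes closest to SA perception had a large share of lower calls. Of 6 tested NPR and NPR1-interacting genes, 5 were lower with Zip1 (83.3%) and the median log2 fold change was −3.86; the class summed to 67.2 to 101 CPM in Zip1 leaves, 260 to 320 CPM in SA leaves and 71.8 to 88.4 CPM in mock leaves. Zm00001eb285470 (chromosome 6, 148549553 to 148552518, minus strand), which carries an NPR1-interacting domain under a plastid movement entry, had 17.8, 21.5 and 61.8 normalised counts in the Zip1 libraries, 3599, 2490 and 3702 in the SA libraries, and 31.3, 30.4 and 20.7 in the mock libraries. Every SA library stood far above all others, and the Zip1 and mock libraries overlapped (log2 fold change of Zip1 over SA −6.58, SE 0.44, adjusted p 4.73e-05). Its neighbour Zm00001eb285460, also with an NPR1-interacting domain, had 0, 0 and 19.0 normalised counts with Zip1, against 960, 711 and 1109 with SA and 3.13, 0 and 0 with mock (log2 fold change −7.12, SE 0.96, adjusted p 0.00387). Zm00001eb125390, an entry of NEGATIVE REGULATOR OF RESISTANCE, which in rice binds NPR1 and dampens resistance, had 2 counts over the Zip1 libraries and 496 over the SA libraries, a ratio of 66.9 to 2011 by its counting interval (adjusted p 0.00114). The receptors themselves differed less: the NPR2 entry (Zm00001eb370160) averaged 1406 ± 108 with Zip1 and 3096 ± 417 with SA (log2 fold change −1.14, SE 0.17, adjusted p 0.00503). The NPR3 entry (Zm00001eb065420), which overlaps another gene, averaged 922 ± 205 with Zip1 and 1753 ± 228 with SA (log2 fold change −0.93, SE 0.19, adjusted p 0.0201). The NPR1 entry, Zm00001eb121040, averaged 102 ± 42.3 normalised counts with Zip1 and 132 ± 19.9 with SA and did not pass (adjusted p 0.701); these 3 receptors were singled out after their values were seen. None of 12 TGA-type factors was called, and their median log2 fold change was −0.36. Coordinates throughout are those of the count table, whose genome build is not given in the sources used here.

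WRKY factors, DNA-binding proteins of the defence response, split in both directions. Of 92 tested, 12 were lower with Zip1 (13.0%) and 4 were higher (4.35%), so the class median of −0.19 hid members that lay far apart. WRKY62 (Zm00001eb312890, chromosome 7, 120285678 to 120287275, minus strand) had 0, 0 and 160 normalised counts with Zip1, 14829, 13752 and 15822 with SA, and 9.39, 40.2 and 22.6 with mock. A single Zip1 library lay above the mock range, and all 3 lay far below SA (log2 fold change −8.10, SE 1.41, adjusted p 0.0143). WRKY76 (Zm00001eb312870), a neighbour on the same strand within 244 kb, had 17.8, 8.4 and 92.3 normalised counts with Zip1, 8825, 3869 and 9439 with SA, and 0, 1.09 and 0 with mock. Here all 3 Zip1 libraries were above all 3 mock libraries and below all 3 SA libraries (log2 fold change −7.53, SE 0.81, adjusted p 0.00147). A second WRKY76 entry, Zm00001eb099460 on chromosome 2, had 0, 2.80 and 2.85 normalised counts with Zip1 and 391, 231 and 231 with SA (log2 fold change −7.09, SE 0.68, adjusted p 0.00103). WRKY70 (Zm00001eb330710), whose Arabidopsis namesake acts downstream of NPR1, averaged 46.3 ± 37.0 with Zip1, 4138 ± 1624 with SA and 12.4 ± 3.21 with mock (log2 fold change −6.46, SE 0.65, adjusted p 0.000992).

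On the peptide side of the same family stood WRKY28 (Zm00001eb159340) and WRKY72A (Zm00001eb337290). WRKY28 had 81.3, 181 and 159 normalised counts with Zip1, 14.1, 13.0 and 12.9 with SA, and 32.3, 65.1 and 35.4 with mock. The Zip1 libraries were the highest and the SA libraries the lowest, with no overlap (log2 fold change 3.39, SE 0.48, adjusted p 0.00336). WRKY72A averaged 231 ± 66.2 with Zip1, 25.1 ± 15.9 with SA and 69.8 ± 19.8 with mock (log2 fold change 3.21, SE 0.48, adjusted p 0.00466); it overlaps another gene that was also called, and without a stated strand setting their reads cannot be told apart. The 4 higher WRKY calls became 2 without Zip1 replicate 1 or without SA replicate 1, 2 or 3, whereas the 12 lower calls stayed between 9 and 13 in the 9 fits that left out 1 library. WRKY28 and WRKY72A were called in all 9.

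Regulators close to SA signalling also stood between the treatments. DMR6-LIKE OXYGENASE 1 (Zm00001eb073030), an enzyme that hydroxylates and thereby inactivates SA, had 940, 506 and 1018 normalised counts with Zip1, 5659, 4123 and 5190 with SA, and 49.0, 34.7 and 76.8 with mock. The peptide libraries were all above mock and the hormone libraries lay higher again (log2 fold change of Zip1 over SA −2.60, SE 0.31, adjusted p 0.00134). SAR DEFICIENT 1 (Zm00001eb125120), a factor that in Arabidopsis activates SA synthesis, averaged 132 ± 67.1 with Zip1 and 636 ± 184 with SA (log2 fold change −2.27, SE 0.40, adjusted p 0.0111), a call lost without Zip1 replicate 3 (adjusted p 0.0509). A PAD4 entry (Zm00001eb202040), a lipase-like partner of EDS1, averaged 1616 ± 214 with Zip1, 2948 ± 351 with SA and 1791 ± 311 with mock (log2 fold change −0.87, SE 0.17, adjusted p 0.0203), and its call was lost without Zip1 replicate 1, Zip1 replicate 3 or SA replicate 3 (adjusted p up to 0.0923). EDS1L (Zm00001eb099090) averaged 339 ± 54.1 with Zip1 and 351 ± 6.67 with SA, and isochorismate synthase 2 (Zm00001eb310840), an enzyme of SA synthesis, 1092 ± 241 with Zip1 and 968 ± 198 with SA, and neither passed (adjusted p 0.939 and 0.854); both were singled out after their values were seen.

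**Figure D2:**
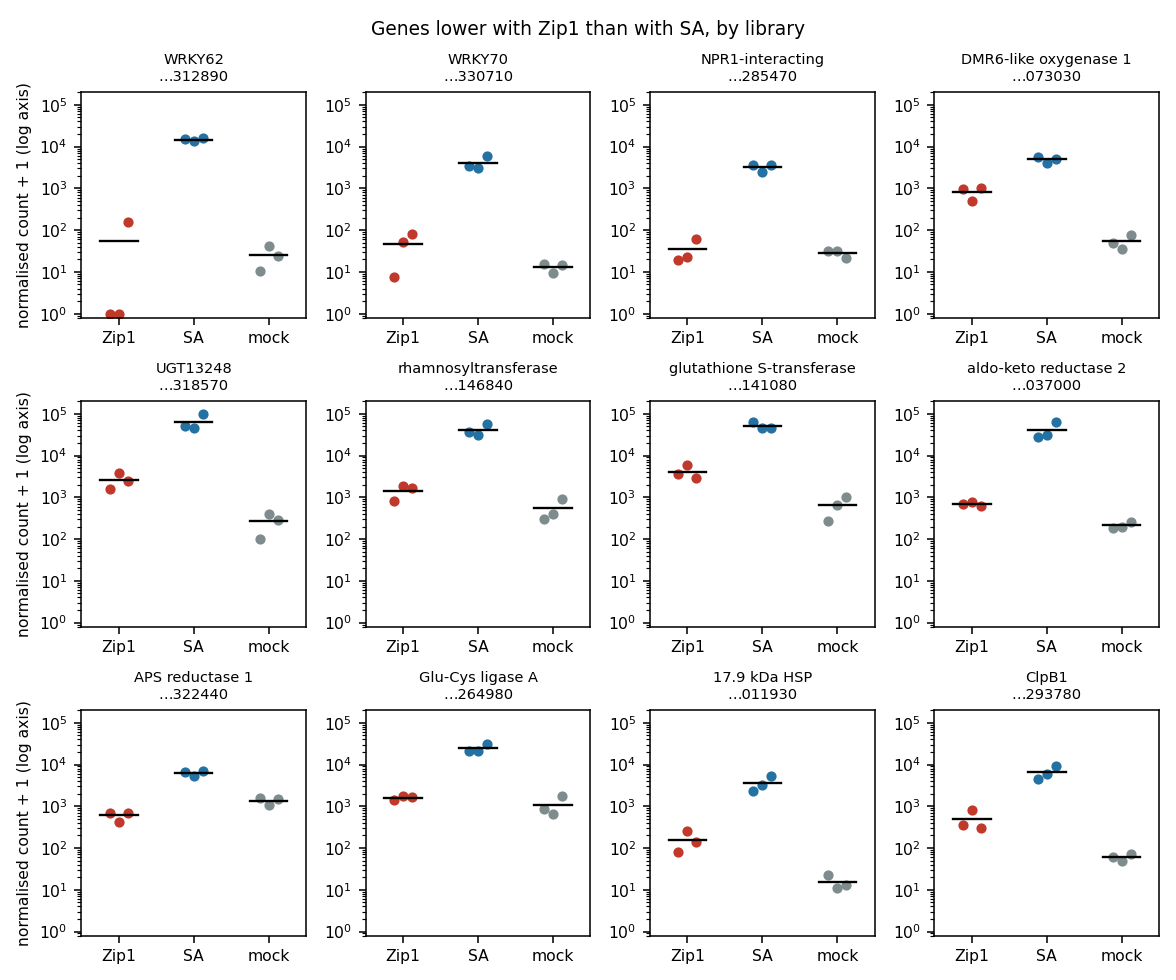
Normalised counts plus 1 (log axis) of 12 genes lower with Zip1 than with SA, by library: Zip1 (red), SA (blue) and mock (grey), with the group mean as a line. As for every called gene, the 3 SA points do not overlap the 3 Zip1 points, and here they lie above them. WRKY62 has 0, 0 and 160 normalised counts with Zip1, against 14829, 13752 and 15822 with SA.

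Detoxification formed the largest block on the hormone side. Of 66 glutathione S-transferases, which join glutathione to reactive or foreign molecules, 17 were lower with Zip1 (25.8%) and 0 were higher. Of 135 UDP-glycosyltransferases, which attach sugars to hormones and toxins, 25 were lower (18.5%) and 0 were higher, and of 159 cytochromes P450 22 were lower (13.8%) and 3 higher. The glutathione S-transferases together summed to 2340 to 3000 CPM in Zip1 leaves, 6220 to 8740 CPM in SA leaves and 1730 to 2190 CPM in mock leaves. The glycosyltransferases summed to 2180 to 3350 CPM with Zip1, 6490 to 10100 CPM with SA and 2120 to 2430 CPM with mock. The class medians were small, −0.26 for the transferases of glutathione and −0.49 for those of sugars, because most members did not differ. Leaving out SA replicate 3 gave 10 glutathione S-transferases and 14 glycosyltransferases, and the glycosyltransferases numbered 16 without Zip1 replicate 1 or 3. The lower P450 count was 10 without Zip1 replicate 1 and 12 without Zip1 replicate 3 or SA replicate 3, and the 3 higher ones became 0 without SA replicate 3, 1 without any other Zip1 or SA library and 5 without mock replicate 3.

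Some of these enzymes were among the 8 lower genes with the highest mean level over the Zip1 and SA libraries. UGT13248 (Zm00001eb318570, chromosome 7, 146013215 to 146015100, plus strand), named for a barley glucosyltransferase that detoxifies the fungal toxin deoxynivalenol, had 1551, 3863 and 2466 normalised counts with Zip1, 50320, 45986 and 97664 with SA, and 102, 402 and 287 with mock. All Zip1 libraries were above all mock libraries, and all SA libraries were far above the highest Zip1 library (log2 fold change −4.62, SE 0.56, adjusted p 0.00188). UDP-glycosyltransferase 79 (Zm00001eb318580), 85.4 kb from the start of the first gene to its own end, had 0, 0.934 and 67.6 normalised counts with Zip1, 4716, 2461 and 6993 with SA, and 0, 0 and 2.95 with mock (log2 fold change −7.65, SE 1.12, adjusted p 0.00615). A rhamnosyltransferase entry (Zm00001eb146840) averaged 1436 ± 543 with Zip1, 40890 ± 13042 with SA and 543 ± 333 with mock (log2 fold change −4.83, SE 0.50, adjusted p 0.000864), and 2 neighbours share its entry.

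Among the glutathione S-transferases, Zm00001eb141080 had 3549, 5784 and 2889 normalised counts with Zip1, 62178, 44852 and 46387 with SA, and 274, 651 and 1015 with mock. The 3 groups did not overlap, with Zip1 in the middle (log2 fold change of Zip1 over SA −3.65, SE 0.45, adjusted p 0.00175); a neighbour shares its entry. IN2-1 (Zm00001eb012930), named as a maize gene induced by herbicide safeners, averaged 1491 ± 858 with Zip1, 34441 ± 10763 with SA and 262 ± 128 with mock (log2 fold change −4.53, SE 0.54, adjusted p 0.00173). Its homolog B on chromosome 9 (Zm00001eb397280) averaged 1003 ± 144 with Zip1 and 11472 ± 6126 with SA (log2 fold change −3.51, SE 0.34, adjusted p 0.000490). CYP72A15 (Zm00001eb159320) averaged 909 ± 287 with Zip1, 15233 ± 5686 with SA and 333 ± 175 with mock (log2 fold change −4.07, SE 0.43, adjusted p 0.000812). An obtusifoliol 14-alpha demethylase entry (Zm00001eb114290), a sterol-synthesis P450 by its name, went the other way, with 525, 152 and 277 normalised counts with Zip1, 0, 0 and 7.53 with SA and 0, 0 and 35.4 with mock. Its call (log2 fold change 7.01, SE 1.64, adjusted p 0.0466) was lost whenever 1 of the 6 Zip1 or SA libraries was left out (adjusted p up to 0.132).

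Many of these genes stood side by side. Called P450 genes formed 7 runs of neighbours, each no more than 5 genes apart, that held 16 of the 22 lower calls, glutathione S-transferases formed 3 runs with 8 of 17, and glycosyltransferases 5 runs with 10 of 25. A run of 4 CYP72A genes spanned 278 kb of chromosome 3, from 222391323 to 222669367. A run of 3 glutathione S-transferases spanned 176 kb of the same chromosome, from 151341442 to 151517544. The share of all tested members of these classes that lie as near to each other was not counted. These runs therefore do not set the called genes apart from their families. Neighbours of like sequence can share reads, so members of a run are not separate measurements.

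Reductase classes had fewer calls, 3 of 27 aldo-keto reductases (11.1%) and 3 of 66 short-chain dehydrogenases (4.55%) lower and 0 higher with Zip1. Aldo-keto reductase 2 (Zm00001eb037000), of a family that reduces reactive carbonyls, had 680, 755 and 636 normalised counts with Zip1, 27701, 31697 and 62373 with SA, and 184, 198 and 260 with mock. Zip1 libraries were above mock and far below SA without overlap (log2 fold change of Zip1 over SA −5.88, SE 0.35, adjusted p 2.92e-05). Of the flavin reductases, 3 of 8 oxophytodienoate reductases (37.5%) were lower with Zip1 and the class median was −1.22; OPR1 (Zm00001eb373050), which shares its entry with a neighbour, averaged 490 ± 68.3 with Zip1 and 3891 ± 399 with SA (log2 fold change −2.99, SE 0.41, adjusted p 0.00331). A pair of short-chain dehydrogenases with the entry of poppy salutaridine reductase lay within 335 kb of chromosome 4. One of them (Zm00001eb185880) had 0 counts in all Zip1 and mock libraries and 316 over the SA libraries, at least 103-fold lower with Zip1 (adjusted p 0.00455). The other (Zm00001eb185830) had 0, 7.47 and 1.90 normalised counts with Zip1 and 384, 535 and 469 with SA (log2 fold change −7.10, SE 0.72, adjusted p 0.000548).

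Exporters had calls in both directions, more of them lower. Of 102 ABC transporters 10 were lower (9.8%) and 3 higher (2.94%) with Zip1. Of 49 MATE transporters 5 were lower (10.2%) and 2 higher (4.08%). Over all genes tested the shares were 2.56% lower and 1.56% higher. The class medians were 0.06 for ABC and −0.49 for MATE transporters. ABCG36 (Zm00001eb161780), whose Arabidopsis namesake PEN3 is a transporter of penetration resistance, averaged 1366 ± 420 with Zip1, 13588 ± 5950 with SA and 266 ± 96.9 with mock (log2 fold change −3.31, SE 0.38, adjusted p 0.00114). ABCG53 (Zm00001eb310230) averaged 6126 ± 826 with Zip1 and 29477 ± 7426 with SA (log2 fold change −2.27, SE 0.23, adjusted p 0.000548). DETOXIFICATION 27 (Zm00001eb006660), a MATE exporter, averaged 2218 ± 927 with Zip1 and 13269 ± 4373 with SA (log2 fold change −2.58, SE 0.35, adjusted p 0.00262). The ABC count was 5 without Zip1 replicate 1 and 6 without Zip1 replicate 3 or SA replicate 1, and the MATE count was 3 without Zip1 replicate 1, Zip1 replicate 3 or SA replicate 3. The higher MATE calls became 0 without Zip1 replicate 1, Zip1 replicate 2 or SA replicate 1 and 1 without the other 3 Zip1 and SA libraries.

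Sulfur and thiol metabolism pointed the same way with few genes. Of 37 genes of sulfate reduction and glutathione synthesis, 4 were lower with Zip1 (10.8%) and 0 higher, and the count stayed at 4 whichever library was left out. Glutamate-cysteine ligase A (Zm00001eb264980), which makes the first intermediate of glutathione, had 1378, 1751 and 1628 normalised counts with Zip1, 21274, 21311 and 30304 with SA, and 856, 643 and 1775 with mock. Zip1 and mock overlapped, and every SA library was above both (log2 fold change of Zip1 over SA −3.94, SE 0.37, adjusted p 0.000409). APS reductase 1 (Zm00001eb322440), which reduces activated sulfate, had 692, 424 and 700 normalised counts with Zip1, 6639, 5275 and 6848 with SA, and 1538, 1052 and 1507 with mock, so that here the Zip1 libraries were the lowest of the 3 groups (log2 fold change of Zip1 over SA −3.37, SE 0.25, adjusted p 8.15e-05). Of 46 glutaredoxins, small thiol oxidoreductases, 4 were lower and 0 higher, and the count was 2 without Zip1 replicate 2 or SA replicate 1. GRXS2 (Zm00001eb337720) had 0 counts in all Zip1 libraries and 178 over the SA libraries, at least 58.1-fold lower with Zip1 (adjusted p 0.0232), a call lost without any 1 of the Zip1 libraries or without SA replicate 1 (adjusted p up to 0.0843).

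Chaperone classes had mostly lower calls with Zip1, with small medians outside the small heat shock proteins and the heat stress factors. Of 40 small heat shock proteins, which bind unfolding proteins, 9 were lower with Zip1 (22.5%), 0 were higher and 36 had a negative log2 fold change, with a class median of −1.70. Of 24 heat stress factors, the transcription factors that control chaperone genes, 6 were lower (25%) and 0 higher. Clp/HSP100 chaperones had 4 lower of 11 (36.4%), and HSP70 chaperones 5 lower (15.2%) and 1 higher (3.03%) of 33. HSP90 chaperones had 1 lower of 11 (9.09%) and DnaJ proteins 5 lower of 110 (4.55%). The medians of the Clp, HSP70, HSP90 and DnaJ classes were −0.30, −0.08, −0.16 and −0.03. A class I small heat shock protein (Zm00001eb011930) had 77.9, 252 and 142 normalised counts with Zip1, 2283, 3154 and 5409 with SA, and 21.9, 9.77 and 11.8 with mock. The 3 groups did not overlap (log2 fold change of Zip1 over SA −4.52, SE 0.47, adjusted p 0.000992). ClpB1 (Zm00001eb293780), a disaggregase, averaged 495 ± 295 with Zip1, 6463 ± 2472 with SA and 60.7 ± 12 with mock (log2 fold change −3.70, SE 0.42, adjusted p 0.00144), and it overlaps another ClpB1 entry that was also called. HSP82 (Zm00001eb418610) averaged 221 ± 124 with Zip1 and 2727 ± 396 with SA (log2 fold change −3.62, SE 0.51, adjusted p 0.00455). The HSP70 entry with the largest difference (Zm00001eb397600) had 0, 22.4 and 26.6 normalised counts with Zip1 and 668, 613 and 1201 with SA (log2 fold change −5.62, SE 0.81, adjusted p 0.00502). The higher HSP70 call (Zm00001eb029200) averaged 8112 with Zip1, 4597 with SA and 4837 with mock (log2 fold change 0.82). That call was lost without Zip1 replicate 2, Zip1 replicate 3, SA replicate 1 or SA replicate 2 (adjusted p up to 0.0829).

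The chaperone counts depended on single libraries. The 9 small heat shock calls became 2 without Zip1 replicate 1, 4 without Zip1 replicate 2, 5 without SA replicate 2 and 3 without SA replicate 3, while the class median stayed between −2.18 and −1.35. The 6 heat stress factor calls became 2 without Zip1 replicate 1 or Zip1 replicate 3 and 3 without SA replicate 1. Leaving out 1 library gave 1 to 5 lower HSP70 calls, 2 to 4 lower Clp calls and 3 to 6 lower DnaJ calls. The small heat shock class summed to 206, 342 and 357 CPM in the Zip1 libraries, 478, 826 and 1330 CPM in the SA libraries and 189, 233 and 226 CPM in the mock libraries. A run of 4 small heat shock genes on chromosome 3 (20467510 to 20637019, 170 kb) included a second class I gene, Zm00001eb124950, which averaged 58.3 ± 11.9 normalised counts with Zip1, 898 ± 629 with SA and 13.8 ± 11.6 with mock (log2 fold change −3.94, SE 0.57, adjusted p 0.00452). Folding proteins of the endoplasmic reticulum (ER) had 2 higher (6.25%) and 1 lower (3.12%) of 32, against 1.56% and 2.56% over all genes tested. Those ER shares rest on few genes. Higher ER calls fell to 0 when Zip1 replicate 3 was left out. Leaving out Zip1 replicate 2, SA replicate 1 or SA replicate 3 left 1, and leaving out mock replicate 3 gave 6. The proteasome had 1 higher (1.04%) and 0 lower of 96, and that call was lost without any 1 of the Zip1 or SA libraries.

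**Figure D3:**
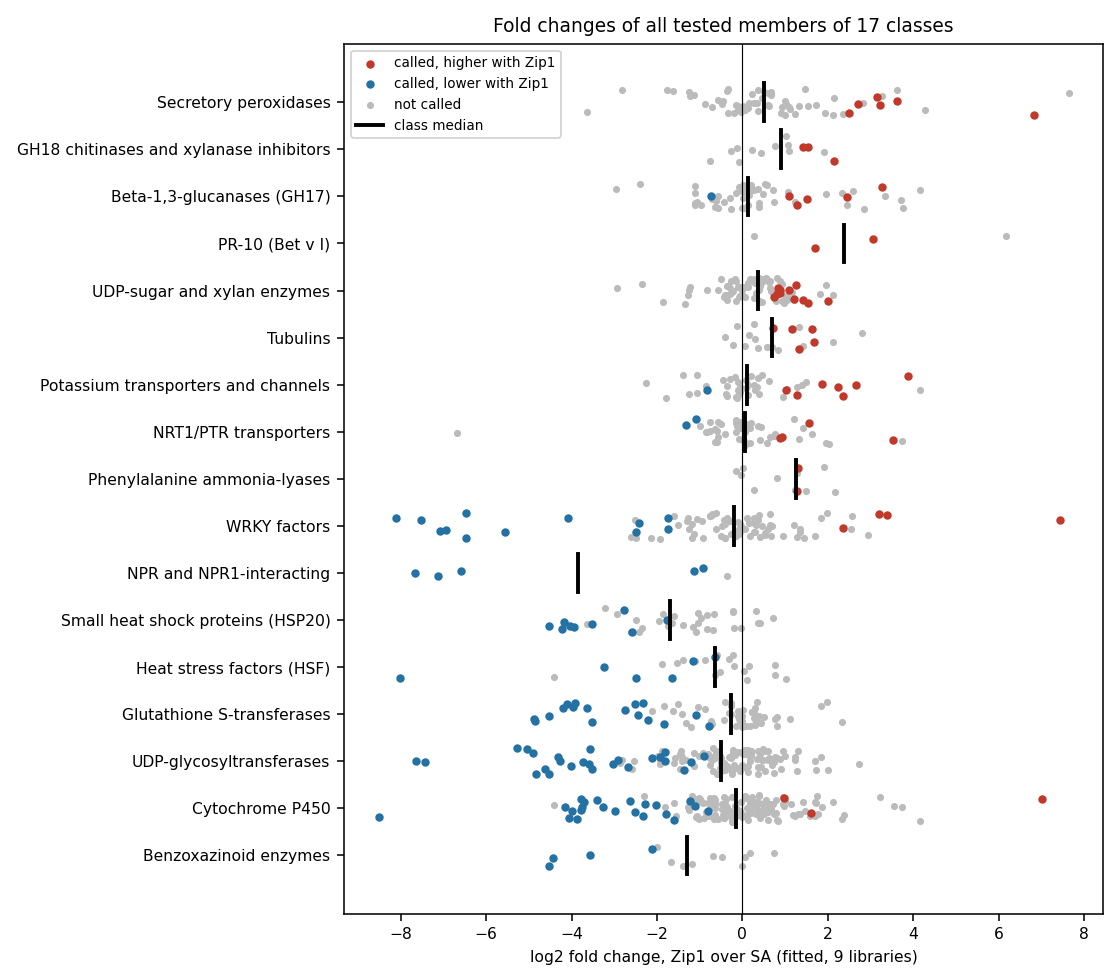
Fitted log2 fold change of Zip1 over SA for each tested member of 17 classes; red and blue points were called higher or lower with Zip1, grey points were not called, and black bars are class medians. Medians run from −3.86 for NPR and NPR1-interacting genes to 2.38 for PR-10 genes, and in the glutathione S-transferase, glycosyltransferase and P450 classes a tail of blue points extends left of a median near 0.

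Benzoxazinoids, the main defence metabolites of young maize, had lower calls at late steps of their synthesis. Of 14 tested genes, 4 were lower with Zip1 (28.6%), all of them entries of BX7 or BX8, and at least 3 were called in each fit that left out 1 library. BX7 (Zm00001eb169520), an O-methyltransferase, had 80.2, 527 and 167 normalised counts with Zip1, 3821, 6863 and 6174 with SA, and 417, 572 and 378 with mock. Zip1 and mock overlapped below all SA libraries (log2 fold change of Zip1 over SA −4.44, SE 0.62, adjusted p 0.00509). BX8 (Zm00001eb096940), the glucosyltransferase that stores DIMBOA, averaged 17.8 ± 5.93 with Zip1, 421 ± 194 with SA and 24.1 ± 16.7 with mock (log2 fold change −4.54, SE 0.59, adjusted p 0.00205). The gene with the smallest adjusted p in the whole comparison, 5.01e-06, was a cinnamyl alcohol dehydrogenase entry (Zm00001eb070170), of an enzyme family of lignin precursors. It had 65.7, 76.6 and 51.4 normalised counts with Zip1, 2059, 2396 and 3130 with SA, and 9.39, 13.0 and 8.86 with mock, 3 groups without overlap (log2 fold change of Zip1 over SA −5.29, SE 0.24).

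Most signalling and transcription factor classes had more lower than higher calls with Zip1. Over all genes tested the shares were 2.56% lower and 1.56% higher. Lectin, malectin and S-domain kinases went the other way, with 5 higher (4.1%) and 2 lower (1.64%) of 122. MYB factors had 2 calls in each direction of 135. ERF and AP2 factors had 6 lower and 0 higher of 112 (5.36% lower), and bHLH factors 4 lower and 1 higher of 91. Wall-associated and cysteine-rich kinases had 4 lower and 0 higher of 89 (4.49% lower), and bZIP factors 2 lower and 0 higher of 86 (2.33%). Of 56 genes of the MAP kinase cascade 6 were lower (10.7%) and 0 higher with Zip1. Of 69 NB-ARC receptors, the intracellular immune receptors, 5 were lower (7.25%) and 0 higher. Of 75 NAC factors 7 were lower and 2 higher (9.33% and 2.67%). NAC71 (Zm00001eb201290) averaged 879 ± 90.5 with Zip1, 4923 ± 930 with SA and 1763 ± 650 with mock (log2 fold change −2.49, SE 0.28, adjusted p 0.000992). The MAP kinase count was 2 without Zip1 replicate 1 or 3, the lower NAC count was 4 without Zip1 replicate 3, and the higher one was 0 without Zip1 replicate 1, Zip1 replicate 3 or SA replicate 2 and 1 without Zip1 replicate 2, SA replicate 1, SA replicate 3 or mock replicate 3. Likewise, the NB-ARC count was 2 without Zip1 replicate 1 or SA replicate 1 and 3 without Zip1 replicate 2, Zip1 replicate 3 or SA replicate 2. Receptor kinases with leucine-rich repeats were called 7 times in each direction among 195 (3.59% each). The higher ones became 1 without Zip1 replicate 3 or SA replicate 3. They became 3 without Zip1 replicate 1, Zip1 replicate 2 or SA replicate 1 and 4 without SA replicate 2. The lower ones became 4 without Zip1 replicate 3.

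The remaining large falls included genes with little or no description. The Myb-related protein Zm1 entry (Zm00001eb430010) had 0 counts in all Zip1 and mock libraries and 740 over the SA libraries, at least 242-fold lower with Zip1 (adjusted p 0.000984); it overlaps another gene and 2 neighbours share its entry, so its count is uncertain. Zm00001eb130740, with a Myb/SANT-like domain, had 0 counts with Zip1 and 160 over the SA libraries, at least 52.2-fold lower (adjusted p 0.00851). Zm00001eb317020, with a DUF4228 domain, had 6.68, 0 and 3.81 normalised counts with Zip1, 544, 321 and 481 with SA, and 8.35, 0 and 10.8 with mock (log2 fold change −7.01, SE 0.87, adjusted p 0.00178). Among abundant transcripts, beta-glucosidase 31 (Zm00001eb318150), of an enzyme family that releases sugars from conjugates, averaged 5113 ± 1800 with Zip1 and 55062 ± 24980 with SA (log2 fold change −3.43, SE 0.36, adjusted p 0.000688). Cysteine proteinase 2 (Zm00001eb314220), a papain-like protease of the family that releases Zip1, averaged 10553 ± 5890 with Zip1, 41349 ± 7841 with SA and 15444 ± 6479 with mock (log2 fold change −1.97, SE 0.40, adjusted p 0.0216). It was the only call among 18 tested papain-like proteases, and it was lost without Zip1 replicate 1, Zip1 replicate 3 or SA replicate 3 (adjusted p up to 0.0865).

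Pathogenesis-related proteins had the largest share of higher calls with Zip1 among the groups of classes. Against mock, 8 of them were called higher and 0 lower with Zip1, and 11 higher and 8 lower with SA. Over all genes tested those shares were 0.823% and 0.0607% with Zip1, and 5.11% and 1.11% with SA. These counts cover all tested members of the families, not only the genes called between Zip1 and SA. Over all genes, the calls of Zip1 against mock became 0 without mock replicate 1. Of 187 tested members of these families, 20 were higher with Zip1 (10.7%) and 1 was lower (0.535%), and together they summed to 5260 to 6390 CPM in Zip1 leaves, 3020 to 3800 CPM in SA leaves and 3340 to 3880 CPM in mock leaves. Secretory peroxidases, which cross-link wall polymers and make reactive oxygen, had 6 higher and 0 lower of 65, and their median log2 fold change was 0.51. Against mock, 0 peroxidases were called with Zip1, and 4 were lower and 0 higher with SA. Peroxidase 2 (Zm00001eb330540, chromosome 7, 181831453 to 181833093, plus strand) had 11921, 13835 and 12251 normalised counts with Zip1, 2357, 1778 and 2604 with SA, and 2923, 6146 and 9299 with mock. The Zip1 libraries were the highest and the SA libraries the lowest without overlap (log2 fold change of Zip1 over SA 2.5, SE 0.35, adjusted p 0.00344). Peroxidase 4 (Zm00001eb195200), which shares its entry with a neighbour, averaged 628 ± 191 with Zip1, 51.3 ± 15.9 with SA and 285 ± 181 with mock (log2 fold change 3.61, SE 0.46, adjusted p 0.00188). Peroxidase N (Zm00001eb009950) averaged 938 ± 217 with Zip1, 144 ± 61.3 with SA and 336 ± 127 with mock (log2 fold change 2.71, SE 0.39, adjusted p 0.00429). SPC4 (Zm00001eb076180), a cationic peroxidase with 3 neighbours of the same entry, had 153 counts over the Zip1 libraries and 1 over the SA libraries, a ratio of 27.6 to 6211 by its counting interval (adjusted p 0.00562). Leaving out 1 library gave 5 to 8 peroxidase calls.

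Glucanases, chitinases and xylanase inhibitors were also called mostly higher. Of 59 beta-1,3-glucanases 5 were higher and 1 lower with Zip1, of 10 chitinases of family GH19 2 were higher, and of 14 chitinases and xylanase inhibitors of family GH18 3 were higher, all of them entries of xylanase inhibitor protein 1, a protein that blocks xylanases. One of the 5 glucanase members is described as a polyamine transporter and carries only the domain of the class. The acidic glucanase (Zm00001eb141540) had 7613, 4522 and 7896 normalised counts with Zip1, 948, 561 and 566 with SA, and 1077, 1995 and 1754 with mock. Zip1 was above mock and SA below it in every library (log2 fold change of Zip1 over SA 3.27, SE 0.32, adjusted p 0.000520). Endochitinase A (Zm00001eb078730) had 85.7, 159 and 108 normalised counts with Zip1, 0, 4.87 and 6.46 with SA, and 23.0, 64.0 and 89.6 with mock (log2 fold change 4.90, SE 0.82, adjusted p 0.00834), and 2 neighbours share its entry. Xylanase inhibitor 1 on chromosome 6 (Zm00001eb283280) averaged 781 ± 99.4 with Zip1, 177 ± 67.9 with SA and 359 ± 182 with mock (log2 fold change 2.14, SE 0.38, adjusted p 0.0109), and it overlaps another gene and has 2 neighbours of the same entry. A thaumatin-like protein (Zm00001eb032600) averaged 799 ± 98.1 with Zip1, 172 ± 34.1 with SA and 289 ± 108 with mock (log2 fold change 2.22, SE 0.29, adjusted p 0.00216). The glucanase calls became 2 without Zip1 replicate 2, Zip1 replicate 3 or SA replicate 2 and 1 without SA replicate 1, the GH18 calls became 1 without Zip1 replicate 1 or 3, and the 2 GH19 calls became 1 without any 1 of the Zip1 or SA libraries.

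PR-10 proteins, intracellular proteins of the Bet v I fold, had 2 higher of 4 tested. Against mock, 0 of them were called with Zip1, and 2 were lower with SA. Zm00001eb014010 (chromosome 1, 46990346 to 46991278, plus strand) had 1126, 1392 and 1246 normalised counts with Zip1, 75.9, 204 and 171 with SA, and 457, 752 and 912 with mock. The hormone libraries were the lowest of the 9 and the peptide libraries the highest (log2 fold change 3.05, SE 0.36, adjusted p 0.00134). Its neighbour Zm00001eb014000 averaged 1447 ± 322 with Zip1, 442 ± 52.9 with SA and 798 ± 176 with mock (log2 fold change 1.71, SE 0.22, adjusted p 0.00186). The pair shares an entry with a further neighbour within 100 kb, and both were called in all 9 fits that left out 1 library. None of 4 CAP-domain PR-1 genes, the family often used to report SA signalling, and none of 9 respiratory burst oxidases was called.

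**Figure D4:**
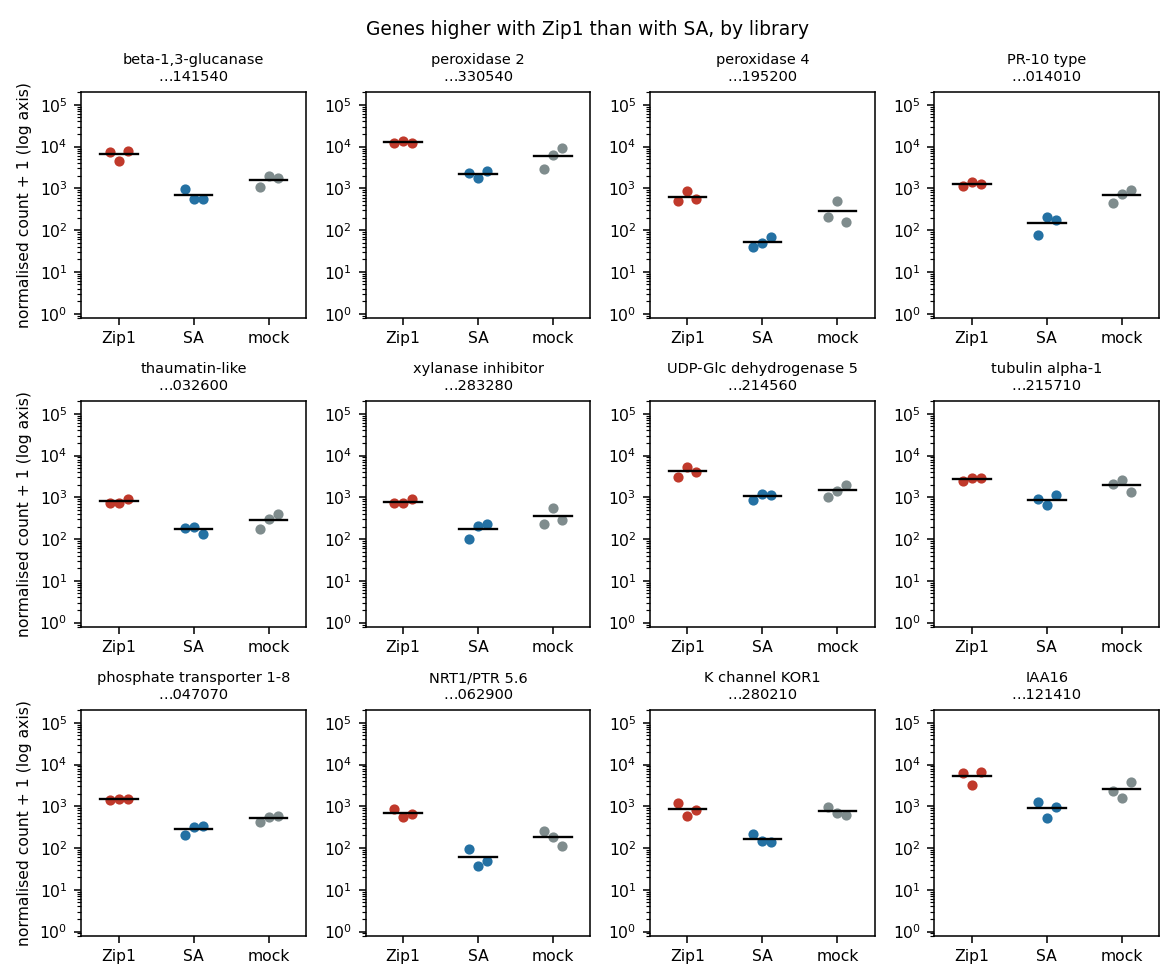
Normalised counts plus 1 (log axis) of 12 genes higher with Zip1 than with SA, by library: Zip1 (red), SA (blue) and mock (grey), with the group mean as a line. As for every called gene, the 3 Zip1 points do not overlap the 3 SA points, and here they lie above them. Peroxidase 2 has 11921, 13835 and 12251 normalised counts with Zip1, against 2357, 1778 and 2604 with SA.

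Cell wall genes had 21 higher and 3 lower calls with Zip1 of 239. Most higher calls came from classes chosen after values were seen, the UDP-sugar and xylan enzymes and the tubulins (5 higher of 21). Of the other wall classes, cellulose synthase and COBRA genes had 4 higher and 2 lower, and pectin enzymes 1 higher and 1 lower of 48. The UDP-sugar and xylan enzymes had 11 higher and 0 lower of 87 (12.6%) and a median log2 fold change of 0.37. UDP-glucose 6-dehydrogenase 5 (Zm00001eb214560), which makes UDP-glucuronate for xylan and pectin, had 3127, 5457 and 4018 normalised counts with Zip1, 852, 1173 and 1128 with SA, and 1036, 1455 and 1922 with mock. All Zip1 libraries lay above all others, and SA and mock overlapped (log2 fold change 2.00, SE 0.27, adjusted p 0.00237). Its paralog entry 4 (Zm00001eb057810) averaged 2897 ± 311 with Zip1, 1366 ± 135 with SA and 1427 ± 235 with mock (log2 fold change 1.08, SE 0.16, adjusted p 0.00478). UDP-arabinopyranose mutase 1 (Zm00001eb219270), which supplies arabinose for wall polymers, averaged 2821 ± 126 with Zip1, 1046 ± 393 with SA and 1218 ± 160 with mock (log2 fold change 1.43, SE 0.24, adjusted p 0.00851). Leaving out a library gave 6 calls without Zip1 replicate 2, Zip1 replicate 3, SA replicate 1 or SA replicate 2 and 7 without SA replicate 3. Cellulose synthase and COBRA genes had 4 higher and 2 lower of 40 (10% and 5.0%). The higher count was 0 without Zip1 replicate 1, SA replicate 1 or SA replicate 3 and 1 without Zip1 replicate 3, while both lower genes were called in all 9 fits that left out 1 library. These were entries of cellulose synthase-like proteins: G2 (Zm00001eb139920) averaged 229 ± 25.1 with Zip1, 1731 ± 163 with SA and 300 ± 187 with mock (log2 fold change −2.92, SE 0.36, adjusted p 0.00175), and E6 (Zm00001eb316070) averaged 2125 ± 303 with Zip1, 6179 ± 1297 with SA and 1249 ± 273 with mock (log2 fold change −1.54, SE 0.22, adjusted p 0.00354). Expansins and xyloglucan enzymes had 0 calls in 18 and 30 members with medians of 0.42 and 0.44.

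Tubulins and vesicle genes, both classes chosen after values were seen, also had more higher than lower calls. The tubulins were counted within the cell wall group above. Of 21 tubulins, the subunits of microtubules, 5 were higher with Zip1 and the median was 0.70. Tubulin alpha-1 (Zm00001eb215710) had 2486, 2828 and 2902 normalised counts with Zip1, 890, 639 and 1114 with SA, and 2040, 2587 and 1345 with mock. Zip1 and mock overlapped and the SA libraries were the lowest (log2 fold change of Zip1 over SA 1.64, SE 0.26, adjusted p 0.00557). Of 302 vesicle coat and traffic genes 13 were higher and 1 lower, with a median of 0.16. The coatomer subunit beta'-2 (Zm00001eb240380), of the coat of Golgi vesicles, averaged 2921 ± 263 with Zip1, 1541 ± 79.6 with SA and 2085 ± 83.5 with mock (log2 fold change 0.92, SE 0.14, adjusted p 0.00407). Dynamin-2A (Zm00001eb253990), which pinches off vesicles, averaged 785 ± 80.7 with Zip1 and 306 ± 96.7 with SA (log2 fold change 1.36, SE 0.23, adjusted p 0.00934). The vesicle count was 3 without Zip1 replicate 2, Zip1 replicate 3 or SA replicate 2, 5 without SA replicate 1 or SA replicate 3 and 7 without Zip1 replicate 1. The tubulin count was 2 without Zip1 replicate 2, Zip1 replicate 3 or SA replicate 1, 3 without SA replicate 3 and 8 without mock replicate 2.

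Nutrient transport classes had more higher than lower calls, other than amino acid transporters (2 higher and 4 lower of 79). Of 46 potassium transporters and channels 7 were higher with Zip1 (15.2%) and 1 lower, of 59 genes of phosphate transport and starvation 4 were higher and 1 lower, of 51 NRT1/PTR transporters 4 were higher and 2 lower. Sugar transporters had 4 higher and 0 lower of 59, and aquaporins 2 higher and 0 lower of 29. The potassium channel KOR1 (Zm00001eb280210), an outward channel by its name, had 1174, 571 and 812 normalised counts with Zip1, 210, 147 and 142 with SA, and 960, 708 and 624 with mock. Zip1 and mock overlapped, and the SA libraries were below both (log2 fold change of Zip1 over SA 2.36, SE 0.29, adjusted p 0.00170). Potassium transporter 21 (Zm00001eb048960) had the opposite arrangement, with 138, 65.3 and 208 normalised counts with Zip1, 7.59, 2.43 and 18.3 with SA, and 8.35, 8.68 and 10.8 with mock. Here SA and mock overlapped and Zip1 stood above both (log2 fold change 3.87, SE 0.70, adjusted p 0.0123), a call lost without Zip1 replicate 3 (adjusted p 0.0626). The potassium count was 2 without SA replicate 2 or SA replicate 3, 3 without Zip1 replicate 3 and 4 without SA replicate 1; the higher NRT1/PTR count was 2 without Zip1 replicate 3 or SA replicate 1, and the lower one was 0 without Zip1 replicate 1, Zip1 replicate 3 or SA replicate 3 and 1 without SA replicate 1 or SA replicate 2. The sugar count was 1 without Zip1 replicate 1, Zip1 replicate 3, SA replicate 2 or mock replicate 1 and 2 without SA replicate 1, SA replicate 3 or mock replicate 2. The aquaporin count was 1 without any Zip1 or SA library or mock replicate 1. Amino acid transporters kept 1 higher call by count without Zip1 replicate 1 or 2 and 0 without Zip1 replicate 3, and their lower count was 1 without Zip1 replicate 1 and 2 without Zip1 replicate 2, Zip1 replicate 3, SA replicate 1 or SA replicate 3.

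The higher phosphate count stayed at 4 whichever library was left out, and the 3 members described next were called each time. Of the 9 tested members found by domain alone, 0 were called. All 4 higher genes were therefore placed in the class by words in their protein entries. Phosphate transporter 1-8 (Zm00001eb047070), which carries phosphate into cells, had 1403, 1520 and 1509 normalised counts with Zip1, 207, 323 and 328 with SA, and 430, 540 and 577 with mock. The 3 groups did not overlap, and mock stood between the treatments (log2 fold change of Zip1 over SA 2.37, SE 0.21, adjusted p 0.000254). PHOSPHATE-INDUCED 1 (Zm00001eb279370) averaged 1639 ± 384 with Zip1, 198 ± 96.6 with SA and 921 ± 484 with mock (log2 fold change 3.05, SE 0.44, adjusted p 0.00444). Purple acid phosphatase 15 (Zm00001eb064450), which releases phosphate from esters, averaged 1700 ± 588 with Zip1, 416 ± 90.2 with SA and 737 ± 33.3 with mock (log2 fold change 2.03, SE 0.25, adjusted p 0.00163). NRT1/PTR FAMILY 5.6 (Zm00001eb062900) averaged 687 ± 143 with Zip1, 59.8 ± 32.2 with SA and 182 ± 69.6 with mock (log2 fold change 3.53, SE 0.42, adjusted p 0.00127). Polyol transporter 5 (Zm00001eb325640) averaged 6185 ± 894 with Zip1, 1584 ± 637 with SA and 2493 ± 182 with mock (log2 fold change 1.96, SE 0.27, adjusted p 0.00275).

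Phenylpropanoid genes were called in both directions. Of 12 phenylalanine ammonia-lyases, the first enzymes of the pathway, 2 were higher, 10 had a positive log2 fold change and the median was 1.25. Zm00001eb185250 averaged 698 ± 124 with Zip1, 288 ± 68.9 with SA and 447 ± 15.6 with mock (log2 fold change 1.28, SE 0.22, adjusted p 0.00910), and 2 neighbours share its entry. Of 89 later phenylpropanoid genes 4 were higher, among them a caffeic acid O-methyltransferase (Zm00001eb172420) at 1741 ± 708 with Zip1, 518 ± 157 with SA and 1898 ± 297 with mock (log2 fold change 1.75, SE 0.30, adjusted p 0.00899). The 3 lower calls were all cinnamyl alcohol dehydrogenase entries. Without SA replicate 2, the 4 higher calls became 2, and the 2 lyase calls became 1 without Zip1 replicate 1, Zip1 replicate 2, SA replicate 1, SA replicate 3 or mock replicate 1.

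Hormone genes gave scattered calls, 3.38% higher and 2.77% lower with Zip1, against 1.56% and 2.56% over all genes tested. Jasmonate genes had 4 higher (7.27%) and 1 lower (1.82%) of 55, and leaving out 1 library gave 1 to 4 higher calls. Jasmonate-induced oxygenase 1 (Zm00001eb368350) averaged 2285 with Zip1, 412 with SA and 779 with mock (log2 fold change 2.47). Its call was lost without SA replicate 2 or SA replicate 3 (adjusted p up to 0.0597). The auxin class of 113 genes had 2 higher and 4 lower calls with Zip1 (1.77% and 3.54%), close to the shares over all genes tested. The auxin genes below are therefore described singly and do not set the class apart. The repressors IAA16 (Zm00001eb121410) and IAA18 (Zm00001eb293610) were the 2 higher ones. IAA16 had 6127, 3217 and 6788 normalised counts with Zip1, 1267, 514 and 954 with SA, and 2370, 1551 and 3829 with mock. The SA libraries were below all others, and Zip1 and mock overlapped (log2 fold change of Zip1 over SA 2.56, SE 0.43, adjusted p 0.00986). IAA18 averaged 245 ± 92.6 with Zip1, 39.6 ± 10.4 with SA and 113 ± 31.1 with mock (log2 fold change 2.63, SE 0.38, adjusted p 0.00373). The auxin response factor 9 entry (Zm00001eb082150), a factor that binds auxin-responsive promoters, averaged 940 ± 95.6 with Zip1, 2866 ± 1063 with SA and 1499 ± 282 with mock (log2 fold change −1.61, SE 0.25, adjusted p 0.00502). Auxin response factor 19 (Zm00001eb227100) averaged 414 ± 100 with Zip1 and 965 ± 220.0 with SA (log2 fold change −1.22, SE 0.23, adjusted p 0.0151), lost without SA replicate 1 (adjusted p 0.0542). Another repressor, IAA17 (Zm00001eb350370), averaged 135 ± 39.8 with Zip1 and 445 ± 102 with SA (log2 fold change −1.72, SE 0.39, adjusted p 0.0332), lost without Zip1 replicate 1, Zip1 replicate 3 or any SA library (adjusted p up to 0.123). The lower auxin count was 1 without SA replicate 1 and 2 without Zip1 replicate 1, Zip1 replicate 3 or SA replicate 2, and the higher one was 4 without SA replicate 1.

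In the gibberellin class of 24 genes 4 were higher (16.7%) and 1, an inactivating dioxygenase, was lower (4.17%). The 4 higher calls mixed roles: enzymes that make and that inactivate gibberellin and a DELLA repressor, and the higher count was 1 without Zip1 replicate 1, Zip1 replicate 3 or SA replicate 3 and 2 without Zip1 replicate 2 or SA replicate 2; the lower call was lost without Zip1 replicate 1, Zip1 replicate 2 or SA replicate 3. Calcium sensors and kinases had 4 higher (2.02%) and 8 lower (4.04%) of 198, against 1.56% and 2.56% over all genes tested. With the class defined by domains alone, 3 higher and 2 lower calls remained. CML27 (Zm00001eb395260), a calmodulin-like protein, averaged 1209 ± 184 with Zip1, 215 ± 75.1 with SA and 364 ± 212 with mock (log2 fold change 2.49, SE 0.40, adjusted p 0.00714), and CIPK10 (Zm00001eb016180), a kinase of calcium sensors, averaged 12060 ± 1988 with Zip1, 5332 ± 792 with SA and 8825 ± 1116 with mock (log2 fold change 1.18, SE 0.19, adjusted p 0.00714). Leaving out Zip1 replicate 1, Zip1 replicate 2, Zip1 replicate 3 or SA replicate 3 left 4, 3, 1 or 5 of the 8 lower calcium calls by count, and the 4 higher ones became 2 without SA replicate 1 or SA replicate 2.

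The largest rises lay mostly outside these classes. Zm00001eb296500, with a DUF538 domain of unknown function, had 94.6, 217 and 321 normalised counts with Zip1, 0 in all SA libraries, and 19.8, 4.34 and 51.2 with mock. No SA library held a count, so it was at least 223-fold higher with Zip1 (adjusted p 0.00527). Carboxylesterase 15 (Zm00001eb300620), with 4 neighbours of the same entry, had 591, 255 and 610 normalised counts with Zip1 and 21.7, 20.3 and 26.9 with SA (log2 fold change 4.40, SE 0.47, adjusted p 0.000741). Alpha carbonic anhydrase 7 (Zm00001eb037940), which shares its entry with a neighbour, averaged 182 ± 45.2 with Zip1, 8.84 ± 6.00 with SA and 19.6 ± 6.02 with mock (log2 fold change 4.35, SE 0.56, adjusted p 0.00194). A resorcinol O-methyltransferase entry (Zm00001eb191590), from sorgoleone synthesis in sorghum, had 1662, 2754 and 3560 normalised counts with Zip1, 47.7, 119 and 293 with SA, and 290, 727 and 978 with mock (log2 fold change 4.12, SE 0.68, adjusted p 0.0109). These 4 genes were called in all 9 fits that left out 1 library.

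Other large rises were less stable. TWIN SISTER of FT (Zm00001eb411580), of the florigen family, had 82.4, 133 and 283 normalised counts with Zip1 and 0, 0 and 9.69 with SA (log2 fold change 5.71, SE 1.09, adjusted p 0.0168), and its call was lost without Zip1 replicate 3 (adjusted p 0.0715). CBSX5 (Zm00001eb248470) had 601, 278 and 206 normalised counts with Zip1 and 30.3, 10.5 and 0 with SA (log2 fold change 4.73, SE 0.95, adjusted p 0.0230), lost without Zip1 replicate 1, Zip1 replicate 2 or SA replicate 2 (adjusted p up to 0.0767). Isocitrate lyase (Zm00001eb323090), of the glyoxylate cycle, had 1816, 597 and 3135 normalised counts with Zip1, 34.7, 0 and 56.0 with SA, and 665, 64.0 and 1490 with mock. Its mock libraries differed as widely as its Zip1 libraries, and its call (log2 fold change 5.99, SE 1.34, adjusted p 0.0392) was lost without any 1 library other than mock replicate 2 (adjusted p up to 0.104). Zm00001eb172810, with the domain of a basal layer antifungal peptide, had 93.5, 49.5 and 286 normalised counts with Zip1 and 7.59, 0 and 6.46 with SA (log2 fold change 4.96, SE 1.14, adjusted p 0.0366), lost without Zip1 replicate 1, Zip1 replicate 3, any SA library or mock replicate 1 (adjusted p up to 0.180). Zm00001eb115450, with a domain of the FAF family, had 127, 28.9 and 1.90 normalised counts with Zip1 and 0 with SA, at least 50-fold higher (adjusted p 0.0435), and was called in 1 of the 9 fits, the one without Zip1 replicate 3 (adjusted p up to 0.132 in the others).

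**Figure D5:**
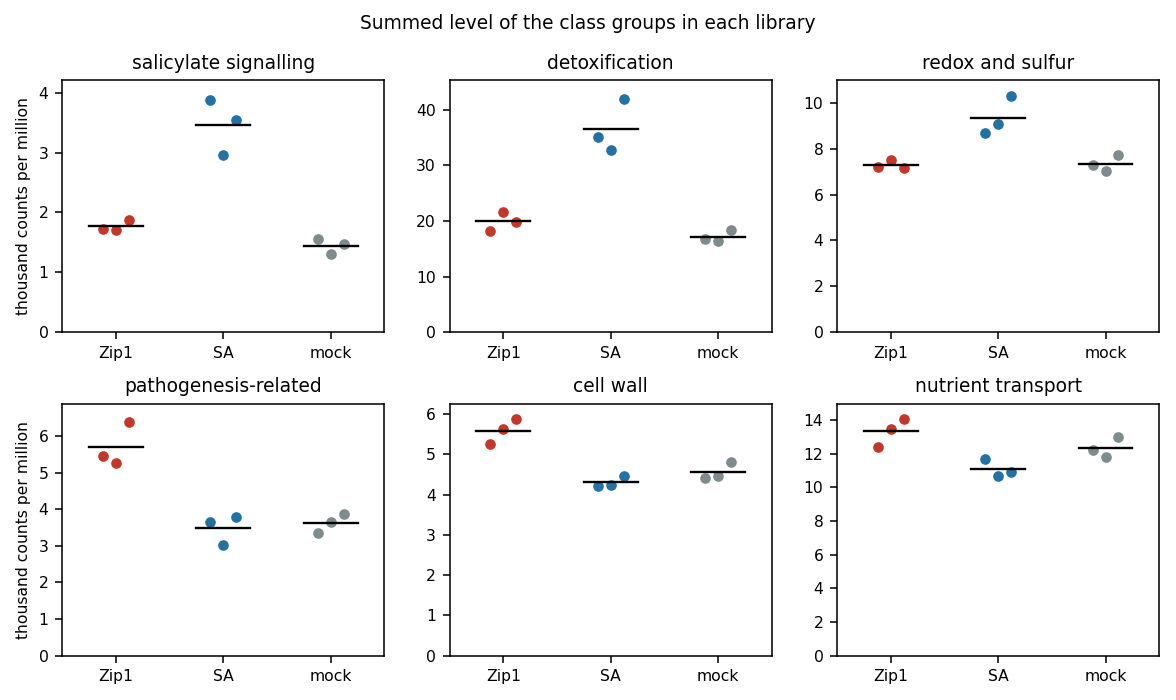
Summed CPM of all genes in 6 groups of classes, by library: Zip1 (red), SA (blue) and mock (grey), with the group mean as a line; every axis starts at 0 and counts in units of 1000 CPM. SA libraries are the highest for SA signalling, detoxification and redox and sulfur genes, and Zip1 libraries are above SA libraries for pathogenesis-related, cell wall and nutrient transport genes. The cell wall group includes UDP-sugar and xylan enzymes and tubulins, chosen after values were seen. In some groups not shown, protein folding and turnover among them, the Zip1 and SA libraries overlapped.

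Sums over whole groups of classes separated the treatments in some groups and overlapped in others. SA signalling genes summed to 1720, 1700 and 1880 CPM with Zip1, 3880, 2960 and 3540 CPM with SA, and 1560, 1300 and 1480 CPM with mock. Detoxification genes summed to 18200, 21700 and 19900 CPM with Zip1, 35100, 32700 and 41900 CPM with SA, and 16700, 16400 and 18400 CPM with mock. Cell wall genes went the other way, with 5270, 5630 and 5880 CPM with Zip1, 4210, 4250 and 4460 CPM with SA, and 4420, 4460 and 4820 CPM with mock. That group includes the UDP-sugar and xylan enzymes and the tubulins, chosen after values were seen. In each of these sums, the Zip1 and SA libraries did not overlap. In protein folding and turnover they did, at 17200, 20400 and 21300 CPM with Zip1 and 20400, 20400 and 23400 CPM with SA. The sums of secretion, hormones, perception and signalling, and transcription factors also overlapped between Zip1 and SA.

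Classes of photosynthesis and growth marked what did not separate. None of 63 light-harvesting and photosystem genes, 40 genes of the C4 and Calvin cycles and 30 clock genes was called, with medians of −0.03, 0.09 and −0.33. Of 303 cytosolic ribosomal proteins 2 were called, both entries of L10 and both lower with Zip1, while 251 of the class had a positive log2 fold change and its median was 0.28. The L10 gene Zm00001eb049570 averaged 5311 ± 754 with Zip1, 15241 ± 4652 with SA and 3204 ± 548 with mock (log2 fold change −1.52, SE 0.24, adjusted p 0.00527). At adjusted p-values above the threshold, differences in these classes were not detectable with 3 libraries a group, which does not show that they are absent.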

How the data were processed

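The authors deposited raw counts per gene for 9 leaf libraries. The submitters' processing notes name HISAT2 2.0.5, featureCounts 1.5.0-p3 and DESeq2 1.20.0; strand setting and build are not given in the sources used here. The number of per-sample columns with no library was 0. A deposited file of FPKM values was not used, because its decimal points are lost.

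Counts were tested with edgeR 4.0.16 in R 4.3.3: filterByExpr by group, TMM factors, and the quasi-likelihood F test in a fit of group alone to the 9 libraries, tested on simulated data. P-values were adjusted by Benjamini-Hochberg over 23077 genes and called under 0.05. With 3 libraries against 3, an exact permutation test of 1 gene cannot go below 0.1. Normalised counts are scaled to the mean effective library size. Folds against 0 counts use a floor of 3 counts over the group, for counting error only; ratios from 1 to 3 counts have a 95% interval, exact by Clopper-Pearson.

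Named genes were the 12 largest rises and falls among called, described genes with a mean of at least 50 normalised counts and no overlap, up to 3 called members per class and direction by p, and up to 8 of the highest level. Entries name the most similar described protein. Members and lists were chosen with earlier results of these data known. Alternatives were DESeq2 1.42.0, RLE factors, no filter, 6 libraries, a replicate block, stricter thresholds, domains alone, and leaving out each library. Replicate numbers met the criterion for pairing, a correlation of deviations over 0.1 in every pair, only between SA and mock libraries.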

Additional observations from a re-analysis of the deposited data

How the results depend on the processing

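The directions of the 236 named genes were unchanged under every alternative that gave them a value, and 128 of them were called in each fit that left out 1 library. The DESeq2 Wald test called 2037 genes, 835 higher and 1202 lower, 946 of the 949 among them, with 930 for Zip1 against mock, 2449 for SA against mock and 685 class members. An adjusted p under 0.01 left 296 genes (83 higher, 213 lower), 4 for Zip1 against mock, 662 for SA against mock and 137 class members. Pairing by replicate number fell short of a correlation over 0.1 in every pair of Zip1 and SA libraries (0.0759, 0.157 and 0.087) and of Zip1 and mock libraries (0.16, 0.0745 and 0.158), but not of SA and mock libraries (0.154, 0.164 and 0.13); all 9 were positive, and each Zip1 and SA sample correlated best with its own number in the other group. The replicate block called 1553 genes (679 higher), 574 for Zip1 against mock and 2220 for SA against mock. Leaving out 1 library gave 456 to 960 genes, 157 to 354 higher and 298 to 606 lower, 203 to 373 class members, 0 to 243 for Zip1 against mock and 839 to 1414 for SA against mock. RLE factors called 950, no filter 948 and the 6 libraries alone 931. The cause of these changes was not tested. A biological coefficient of variation of 34.4% limits small differences: the smallest called log2 fold changes were 0.55 and −0.54.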
